A study of Mus musculus with 4 samples.

Results

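The 10 genes described here mark epithelial state, mesenchymal state and progression in lung tumours. They were chosen by name, with earlier results of these data known, and all 10 were found among the 24391 genes listed in each sample. Cdh1 and Epcam are epithelial adhesion genes, Cdh2, Vim and Fn1 are mesenchymal structural genes, Zeb1, Zeb2, Snai1 and Snai2 encode transcription factors of the epithelial-mesenchymal transition (EMT), and Hmga2 is a lung tumour progression gene. Transcripts were counted in 4 mouse lung tumour samples, 2 labelled K-Ras and 2 labelled K-Ras Mll4-/-. Every sample came from mice with the K-RasLSL-G12D allele, a conditional oncogene that stays silent until Cre removes its stop cassette. The K-Ras Mll4-/- mice also carried Mll4fl/fl, a floxed form of the gene now named Kmt2d, which encodes a histone H3 lysine methyltransferase of enhancers. The source of Cre, the age and sex of the mice and the number of mice per sample are not given in the sources used here, so p-values measure only the spread between these samples. Tumours were dissociated with enzymes, red cells were lysed and cells bearing CD45, the common leukocyte antigen, were depleted before RNA extraction.

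Reads assigned to genes ranged from 26683033 to 36677987 per sample, and 3 reads corresponded to 0.0830 to 0.114 CPM (read counts scaled to library size by TMM). Kmt2d, the targeted gene, was at 395 and 526 CPM in the K-Ras samples and 367 and 317 CPM in the K-Ras Mll4-/- samples. The difference of -0.43 on the log2 scale (SE 0.21) did not pass the test (edgeR adjusted p = 0.302), so these gene totals do not show the deletion and the genotype is taken from the labels. Of 16001 genes tested, 6 passed an edgeR quasi-likelihood adjusted p under 0.05, all higher in K-Ras Mll4-/- samples.

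Epithelial cells hold together through E-cadherin, the product of Cdh1, which binds its like on the next cell and is tied to actin through catenins. In EMT, factors of the SNAIL and ZEB families bind E-box motifs and repress Cdh1 and other epithelial genes, while vimentin, fibronectin and N-cadherin accumulate. In mouse lung adenocarcinoma driven by mutant K-Ras, the chromatin protein HMGA2 is known to appear in advanced, poorly differentiated tumours, and Nkx2-1 is known to restrain it. MicroRNAs act on both arms. The miR-200 family targets Zeb1 and Zeb2 transcripts, and let-7 targets Hmga2.

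The mature microRNAs of these circuits are shown because their seeds (bases 2 to 8, in capitals) define which transcripts they pair with. The sequences are from RefSeq (GRCm38.p6), and members of one seed group differ outside the capitals.
mmu-miR-200b-3p: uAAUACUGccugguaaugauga
mmu-miR-200c-3p: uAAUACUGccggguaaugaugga
mmu-miR-429-3p: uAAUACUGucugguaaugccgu
mmu-miR-200a-3p: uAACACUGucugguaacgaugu
mmu-miR-141-3p: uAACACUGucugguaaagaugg
mmu-let-7a-5p: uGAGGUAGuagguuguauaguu
mmu-let-7g-5p: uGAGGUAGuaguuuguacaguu
The first 3 share one seed, the next 2 share another that differs from it by a single base, and the last 2 carry the let-7 seed.

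Matches to these seeds were counted in the longest 3′ untranslated region of each gene (GENCODE M21, GRCm38). The 4941-base region of Zeb2 held 5 matches to the seed of miR-200b, spelled CAGTATT in the transcript, a number reached by 0.247% of the 1216 regions of similar length (0.8 to 1.25 times its own). For the seed of miR-200a, whose match reads CAGTGTT, it held 4, a number reached by 1.56% of those regions. Zeb1, with a region of 2401 bases, also held 5 and 4, numbers reached by 0.0313% and 0.157% of 3193 regions of similar length. Each set of regions of similar length includes the gene's own region, so every share given here counts that gene itself. At least 1 match was present in 13.9%, 18% and 10.1% of the regions of all 21153 genes for the miR-200b, miR-200a and let-7 seeds. The Hmga2 region of 3014 bases held 4 let-7 matches (CTACCTC), a number reached by 0.107% of 2794 regions of similar length, and no miR-200 match of either kind. Snai1, with a region of 731 bases, held 2 let-7 matches, a number reached by 0.385% of 2600 regions of similar length. Cdh1, Epcam, Cdh2 and Vim held 0 matches to all 3 seeds. Single sites from Zeb2 and Hmga2 are printed below in the transcript sense with the seed match in capitals, at chr2:44988173-44988195, chr2:44987825-44987847 and chr10:120364224-120364246, all on the minus strand of GRCm38.
Zeb2, miR-200b seed match: cgcactaccatacatCAGTATTt
Zeb2, miR-200a seed match: agtgccatccttgtaCAGTGTTc
Hmga2, let-7 match: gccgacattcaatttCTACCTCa
A match is a description of the letters and is not shown here to be bound.

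The E-box letters CACCTG, read on both strands (CAGGTG on the other), were searched in the RefSeq promoters (GRCm38.p6), windows of 300 bases that lie mostly upstream of the gene start. Promoters were matched for 5 of the 10 genes, namely Epcam, Vim, Zeb2, Snai1 and Hmga2. The motif was present in 20% of all 27025 promoters and at least 2 times in 2.85%. Epcam held 2 matches, at -187 and -19 from its start, and Snai1 held 1, at -126. The first listed promoters of Vim, Zeb2 and Hmga2 held none. The Epcam promoter (chr17:87635729-87636028, plus strand) and the Snai1 promoter (chr2:167537945-167538244, plus strand) are shown because they held the motif, which is printed in capitals.
Epcam promoter: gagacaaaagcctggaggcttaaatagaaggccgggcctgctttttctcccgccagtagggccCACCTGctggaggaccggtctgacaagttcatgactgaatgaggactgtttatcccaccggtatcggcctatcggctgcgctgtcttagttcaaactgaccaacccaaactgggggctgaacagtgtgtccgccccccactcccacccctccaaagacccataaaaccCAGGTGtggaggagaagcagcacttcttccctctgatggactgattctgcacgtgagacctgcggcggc
Snai1 promoter: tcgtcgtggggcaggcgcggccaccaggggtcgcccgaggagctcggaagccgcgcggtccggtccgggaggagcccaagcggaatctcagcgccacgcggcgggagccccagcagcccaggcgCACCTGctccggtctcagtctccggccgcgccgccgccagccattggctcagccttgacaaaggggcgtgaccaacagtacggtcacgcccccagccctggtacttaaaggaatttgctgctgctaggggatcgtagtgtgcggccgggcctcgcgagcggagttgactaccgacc

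None of the 10 genes was called between K-Ras Mll4-/- and K-Ras tumours, with edgeR quasi-likelihood adjusted p values from 0.160 (Epcam) to 0.820 (Snai2), against 0.0375% of all genes called. Cdh1, Epcam, Cdh2 and Hmga2 were higher in both K-Ras Mll4-/- samples than in both K-Ras samples, as were 29.9% of all tested genes. Fn1, Zeb1 and Snai1 were lower in both, as were 28.5% of all tested genes. The 7 genes without overlap compare with 58.3% of all genes, and the 4 of 10 with a log2 difference above 0 with 48.8%. Vim, Zeb2 and Snai2 overlapped between the groups. An unadjusted edgeR p under 0.05 was reached by 3 of the 10 (Epcam, Cdh1 and Snai1), against 21.8% of all genes, so the share among these genes was near the background. DESeq2 called 2 of the 10, Cdh1 and Epcam, against 10.0% of all genes. The edgeR calls given for genes and lists are from the fit with group alone, without the replicate number. A fit with a sample removed has 1 sample in that group, which is assumed to vary like the pair in the other group.

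**Figure D1:**
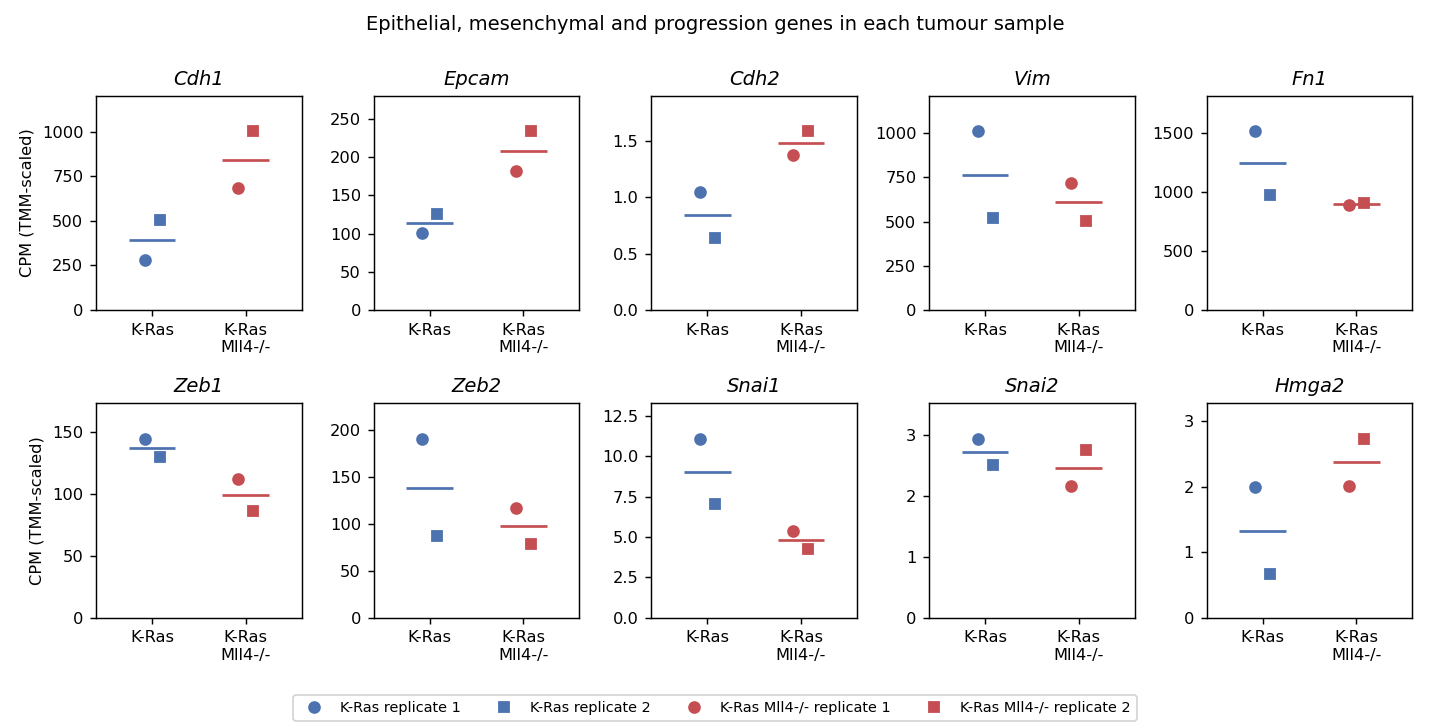
TMM-scaled CPM (vertical axis, linear, from 0) of each of the 10 genes in each of the 4 tumour samples; circles are replicate 1, squares replicate 2, and bars the mean of each group. Cdh1, Epcam, Cdh2 and, by a small margin, Hmga2 are higher in both K-Ras Mll4-/- samples. Vim, Fn1 and Zeb2 are highest in K-Ras replicate 1, at 1009, 1514 and 191 CPM. Zeb1, Snai1 and Snai2 are also highest in that sample, at 145, 11.1 and 2.94 CPM.

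Among the epithelial adhesion genes, Cdh1 (chromosome 8, 106603350 to 106670247, GRCm38.p6) was at 279 and 503 CPM in the K-Ras samples and at 682 and 1001 CPM in the K-Ras Mll4-/- samples. The groups did not overlap, and K-Ras replicate 1 was the lowest. The means were 391 ± 158 and 842 ± 225 CPM (SD, n = 2 each), and the log2 difference, K-Ras Mll4-/- minus K-Ras, was 1.11 (SE 0.38, edgeR adjusted p = 0.211; DESeq2 adjusted p = 0.0318). Epcam, the gene of a homophilic adhesion protein of epithelial surfaces (chromosome 17, 87635979 to 87651127), was at 101 and 126 CPM in K-Ras and at 182 and 233 CPM in K-Ras Mll4-/- samples. Both K-Ras samples were again below both others, with means of 113 ± 17.2 and 208 ± 36.2 CPM (SD, n = 2 each). Its log2 fold change was 0.87 (SE 0.20, edgeR adjusted p = 0.160; DESeq2 adjusted p = 0.0114). With each sample removed in turn the difference lay between 0.75 and 1.58 for Cdh1 and between 0.68 and 1.05 for Epcam. In bulk RNA, fewer cells of a type and less RNA per cell cannot be told apart. The summed alveolar type 2 markers, of the surfactant-making cells from which such tumours are thought to arise, were at 17189 and 28695 CPM in K-Ras and 23608 and 24821 CPM in K-Ras Mll4-/- samples. That sum overlapped between the groups. Of its 7 tested markers, 3 had positive and 4 negative log2 fold changes. Without overlap, 1 was higher and 2 lower, against 29.9% and 28.5% of all tested genes. The higher one was Sftpb, a surfactant protein gene named after its values were seen, at 2870 and 5627 CPM against 7042 and 10338 CPM. The part of these cells in the Cdh1 and Epcam values was not tested.

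Other genes of epithelial junctions and the simple epithelial keratins were examined as a list of 21, all tested. None was called by edgeR. The list had 18 positive log2 fold changes and a median of 0.76 against -0.01 over all tested genes. Among its members, 8 were higher and 1 lower at an unadjusted edgeR p under 0.05, against 11.4% and 10.4% of all genes. This and the other gene lists were chosen with earlier results of these data known. Setting a list beside all genes is therefore a description and not a test. Without K-Ras replicate 1 the median was 0.40, and without K-Ras Mll4-/- replicate 2 it was 0.46, with 2 higher and 0 lower at that level. Krt18 and Krt8, partner keratins of simple epithelia, had the smallest p values among the higher genes. Krt18 was at 177 and 277 CPM in K-Ras and at 1065 and 834 CPM in K-Ras Mll4-/- samples, a log2 difference of 2.07 (SE 0.30, edgeR adjusted p = 0.136). Krt8 was at 214 and 371 CPM against 828 and 727 CPM, a difference of 1.41 (SE 0.32, edgeR adjusted p = 0.160). Cldn4, a claudin of tight junctions, differed in the other direction, at 96.3 and 67.1 CPM in K-Ras and 45.8 and 43.3 CPM in K-Ras Mll4-/- samples (log2 fold change -0.88, SE 0.21, edgeR adjusted p = 0.166). DESeq2 called 6 genes of the list higher (Cldn7, Dsg2, Krt8, Krt18, Krt19 and Rab25) and 1 lower (Cldn4), against 10.0% of all genes.

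The catenins and vinculin, which link cadherins to actin, numbered 4, and none was called. Their log2 fold changes were all positive, from 0.12 to 0.55, with a median of 0.28, or 0.17 without K-Ras replicate 1 and 0.18 without K-Ras Mll4-/- replicate 2. Ctnna1, the gene of alpha-catenin, had the largest, with 652 and 800 CPM in K-Ras and 1074 and 1051 CPM in K-Ras Mll4-/- samples (SE 0.19, edgeR adjusted p = 0.216). Ctnnb1, the beta-catenin gene, differed by 0.36 (SE 0.18) and Ctnnd1, the p120-catenin gene, by 0.19 (SE 0.21).

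Regulators of epithelial state were a list of 11, all tested and none called by edgeR. The list includes the splicing factors Esrp1 and Esrp2, the Grhl and Ovol transcription factors and the ETS factors Elf3 and Ehf. The median log2 fold change was 0.75, with 9 positive, against 48.8% of all genes. At an unadjusted edgeR p under 0.05, 5 were higher and 1 lower, against 11.4% and 10.4% of all genes. The median was 0.26 without K-Ras replicate 1 and 1.19 without K-Ras replicate 2. Ehf was at 84.5 and 114 CPM in K-Ras and 176 and 275 CPM in K-Ras Mll4-/- samples, a log2 difference of 1.18 (SE 0.29, edgeR adjusted p = 0.168). Klf5, a zinc-finger factor of epithelia, was at 19.6 and 40.6 CPM against 66.1 and 112 CPM (1.56, SE 0.45, edgeR adjusted p = 0.186), and Elf3 at 30.0 and 53.6 CPM against 77.2 and 94.9 CPM (1.04, SE 0.32, edgeR adjusted p = 0.192). DESeq2 called Ehf, Elf3, Esrp1 and Klf5, all higher, against 10.0% of all genes called in either direction. The member with an unadjusted edgeR p under 0.05 and a negative difference was Ovol1, at -0.90, while its paralog Ovol2 differed by 0.79. They are named after their values were seen.

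Of the mesenchymal structural genes, Vim, the gene of the intermediate filament vimentin (chromosome 2, 13574311 to 13582826), was at 1009 and 520 CPM in K-Ras and 716 and 505 CPM in K-Ras Mll4-/- samples. K-Ras replicate 1 stood above the rest and the groups overlapped. The log2 fold change was -0.32 (SE 0.39, edgeR adjusted p = 0.658), and without K-Ras replicate 1 it reversed to 0.24. It was -0.74 without K-Ras replicate 2, -0.59 without K-Ras Mll4-/- replicate 1 and -0.10 without K-Ras Mll4-/- replicate 2. Fn1, the fibronectin gene (chromosome 1, 71585473 to 71653280), was at 1514 and 977 CPM in K-Ras and 893 and 905 CPM in K-Ras Mll4-/- samples. The K-Ras Mll4-/- samples lay close together and K-Ras replicate 2 was just above them. The log2 fold change was -0.47 (SE 0.27, edgeR adjusted p = 0.363), and it was -0.12 without K-Ras replicate 1 and -0.77 without K-Ras replicate 2.

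Cdh2, the N-cadherin gene (chromosome 18, 16588877 to 16809246), was scarce in every sample, with 32 and 23 reads in K-Ras and 36 and 51 reads in K-Ras Mll4-/- samples. In CPM these were 1.05 and 0.636 against 1.37 and 1.58, so the K-Ras Mll4-/- samples were the higher ones. Its log2 difference of 0.82 (SE 0.44, edgeR adjusted p = 0.337) had the same sign as that of Cdh1, and was 0.48 without K-Ras replicate 2. The log2 ratio of Cdh1 to Cdh2 was 8.06 and 9.63 in K-Ras and 8.96 and 9.31 in K-Ras Mll4-/- samples, which overlapped (difference 0.29, exact two-sided permutation p = 1). Without K-Ras replicate 1 that difference reversed to -0.49. The log2 ratio of Epcam to Vim was -3.32 and -2.05 in K-Ras and -1.97 and -1.11 in K-Ras Mll4-/- samples. The groups did not overlap, by a small margin, and the difference of 1.14 had an exact two-sided permutation p of 0.33, the smallest that 2 samples against 2 can give. It was 0.50 without K-Ras replicate 1, 0.71 without K-Ras Mll4-/- replicate 2 and 1.77 without K-Ras replicate 2. Ratios within a sample do not depend on the scaling.

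Further mesenchymal structural genes, collagens, matrix proteins, actin-associated proteins and receptors, made a list of 17, all tested and none called by edgeR. The median log2 fold change was -0.69 and 15 were negative. At an unadjusted edgeR p under 0.05 there were 4 lower (Lox, Mmp2, Col5a1 and Itga5) and 1 higher (Cd44). Of all genes, 10.4% were lower and 11.4% higher at that level. Lox, a collagen cross-linking enzyme, was at 70.3 and 32.3 CPM in K-Ras and 16.5 and 20.5 CPM in K-Ras Mll4-/- samples (-1.47, SE 0.41, edgeR adjusted p = 0.181). Mmp2, a matrix metalloproteinase, was at 111 and 63.9 CPM against 37.1 and 42.1 CPM (-1.14, SE 0.30, edgeR adjusted p = 0.177). Cd44, a hyaluronan receptor that epithelial cells also express, was at 451 and 329 CPM in K-Ras and 601 and 638 CPM in K-Ras Mll4-/- samples (0.67, SE 0.22, edgeR adjusted p = 0.199). Summed over the list, K-Ras replicate 1 had 5991 CPM and the other 3 samples 3551 to 3688 CPM. Without that sample the median was -0.22 with 13 negative, and without K-Ras replicate 2 it was -1.06. DESeq2 called 3 genes of the list, Col5a1, Lox and Mmp2, all lower, against 10.0% of all genes called in either direction.

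**Figure D2:**
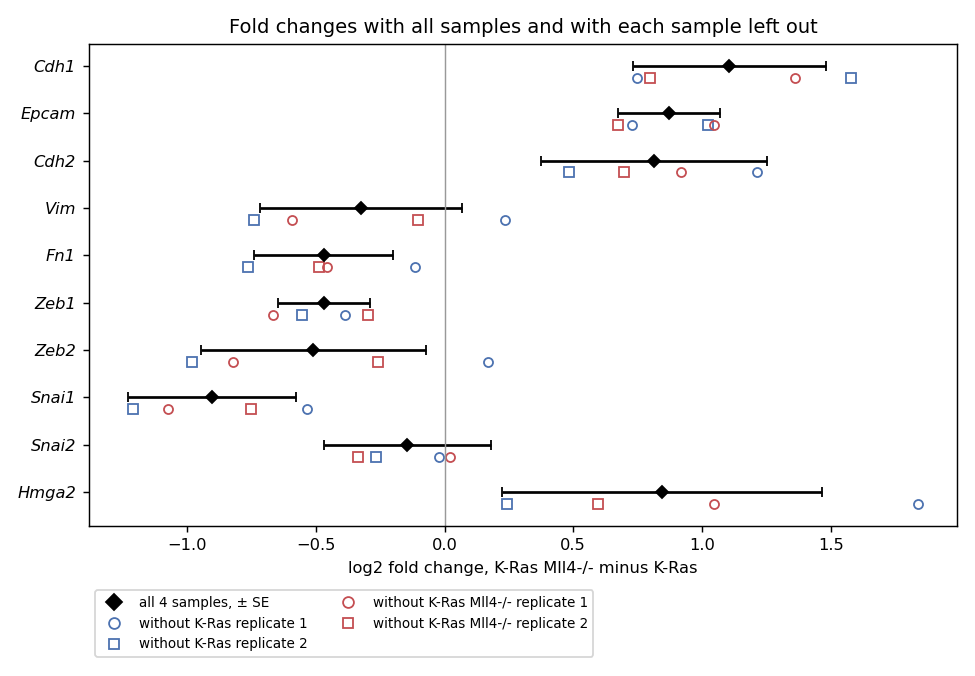
Log2 fold change (horizontal axis, K-Ras Mll4-/- minus K-Ras) of the 10 genes with all 4 samples (diamonds, bars ± SE) and with each sample left out in turn (open circles and squares, coloured by the group of the sample removed). Cdh1 and Epcam stay above 0 in each case, whereas Vim and Zeb2 cross 0 without K-Ras replicate 1.

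The 4 EMT transcription factors all had negative log2 fold changes with all samples. Snai1 (chromosome 2, 167538195 to 167542814), which encodes the zinc-finger repressor SNAIL, was at 11.1 and 7.03 CPM in K-Ras and 5.41 and 4.28 CPM in K-Ras Mll4-/- samples. The groups did not overlap, and the reads behind these values numbered 138 to 339. The log2 fold change was -0.90 (SE 0.33, edgeR adjusted p = 0.219), or -0.53 without K-Ras replicate 1. Snai2, its paralog SLUG (chromosome 16, 14705852 to 14709395), was at 2.94 and 2.52 CPM in K-Ras and 2.17 and 2.76 CPM in K-Ras Mll4-/- samples, from 57 to 91 reads. The groups overlapped, and the difference of -0.14 (SE 0.32, edgeR adjusted p = 0.820) reversed to 0.022 without K-Ras Mll4-/- replicate 1.

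Zeb1 (chromosome 18, 5591327 to 5775468) and Zeb2 (chromosome 2, 44983512 to 45117442) encode the paired zinc-finger homeobox repressors that carry the miR-200 matches given above. Zeb1 was at 145 and 130 CPM in K-Ras and 112 and 86.2 CPM in K-Ras Mll4-/- samples, without overlap. Its log2 fold change was -0.47 (SE 0.18, edgeR adjusted p = 0.232) and lay between -0.67 and -0.30 with each sample removed in turn, the smallest without K-Ras Mll4-/- replicate 2. Zeb2 was at 191 and 86.9 CPM in K-Ras and 117 and 78.2 CPM in K-Ras Mll4-/- samples. K-Ras replicate 1 was the high sample, as for Vim, and the other 3 overlapped. The difference of -0.51 (SE 0.44, edgeR adjusted p = 0.529) reversed to 0.17 without K-Ras replicate 1. It was -0.98 without K-Ras replicate 2, -0.82 without K-Ras Mll4-/- replicate 1 and -0.26 without K-Ras Mll4-/- replicate 2.

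Reads were also assigned to the hairpin genes of the miR-200 family, which in this kind of library come from long precursor RNA and do not measure the mature microRNA. These genes were looked up after the values of Zeb1 and Zeb2 were seen. Mir200a had 12 and 46 reads in K-Ras and 50 and 58 in K-Ras Mll4-/- samples, and Mir429, its neighbour on chromosome 4, had 2 and 10 against 10 and 19. K-Ras replicate 1 was the lowest in both. Neither was called (log2 fold changes 1.14, SE 0.63, and 1.46, SE 0.78; edgeR adjusted p = 0.352 and 0.337). Mir200b, Mir200c and Mir141 had 0 to 4 reads per sample and were not tested.

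Other EMT-linked transcription factors were a list of 11, of which 8 were tested and none was called by edgeR. Twist1 and Twist2 had at most 11 reads in any sample and Gsc had 0 in all 4. The 8 had a median log2 fold change of 0.05, with 4 positive and 4 negative. Sox9, a factor of lung development and of progenitor cells, stood out at 4.02 and 2.96 CPM in K-Ras and 40.9 and 46.1 CPM in K-Ras Mll4-/- samples. Its log2 fold change was 3.64 (SE 0.23), just short of the threshold (edgeR adjusted p = 0.0603; DESeq2 adjusted p = 7.38e-32). Sox9 was also called by edgeR, with all 4 samples, when genes with low counts were kept. Runx2, a runt-domain factor, was at 12.5 and 7.99 CPM against 19.4 and 19.0 CPM (0.91, SE 0.27, edgeR adjusted p = 0.185), and Tcf4, an E-protein, at 407 and 297 CPM against 303 and 235 CPM (-0.39, SE 0.24, edgeR adjusted p = 0.389).

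The TGF-beta pathway, an inducer of EMT, was represented by 17 ligands, receptors, SMADs, regulators and targets, all tested and none called by edgeR. The median log2 fold change was 0.03, with 9 positive and 8 negative. At an unadjusted edgeR p under 0.05, 2 were higher and 3 lower, against 11.4% and 10.4% of all genes. Tgfb1, the main ligand gene, was at 65.2 and 53.3 CPM in K-Ras and 56.0 and 45.1 CPM in K-Ras Mll4-/- samples, which overlapped (-0.23, SE 0.18, edgeR adjusted p = 0.493). Tgfbr3, a co-receptor gene, was at 91.2 and 95.2 CPM against 58.7 and 51.4 CPM (-0.76, SE 0.13, edgeR adjusted p = 0.147). Ltbp1, which encodes a protein that holds latent TGF-beta in the matrix, was at 159 and 122 CPM against 76.3 and 73.0 CPM (-0.91, SE 0.17, edgeR adjusted p = 0.147). Smad3, a signal transducer, was higher, at 82.2 and 88.8 CPM in K-Ras and 112 and 134 CPM in K-Ras Mll4-/- samples (0.53, SE 0.15, edgeR adjusted p = 0.179). DESeq2 called Ltbp1 and Tgfbr3 in this list, both lower, against 10.0% of all genes called in either direction.

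Hmga2, the progression gene (chromosome 10, 120361268 to 120476469), was near the bottom of the measured range, with 61 and 24 reads in K-Ras and 53 and 88 reads in K-Ras Mll4-/- samples. In CPM these were 1.99 and 0.664 against 2.02 and 2.73. K-Ras replicate 1 reached almost the level of K-Ras Mll4-/- replicate 1, and K-Ras replicate 2 alone was low. The log2 difference of 0.84 (SE 0.62, edgeR adjusted p = 0.466) was 0.24 without K-Ras replicate 2 and 1.84 without K-Ras replicate 1. The transcribed pseudogene Hmga2-ps1 (chromosome 1, 176834624 to 176836133), a copy of Hmga2, took more reads than the gene in every sample, 178 and 142 in K-Ras and 149 and 106 in K-Ras Mll4-/-. Counts of gene and copy are uncertain where reads could fit either. The pseudogene differed by -0.12 (SE 0.40, edgeR adjusted p = 0.882).

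The paralog Hmga1 was at 5.17 and 3.96 CPM in K-Ras and 8.38 and 13.1 CPM in K-Ras Mll4-/- samples, without overlap (log2 fold change 1.24, SE 0.33, edgeR adjusted p = 0.176). It belonged to a list of 9 HMGA and let-7 axis genes, of which 6 were tested. The list had a median of 0.09 and no edgeR call. Lin28a, an RNA-binding protein gene that blocks let-7 maturation, and Igf2bp1, a let-7 target, had at most 10 reads in any sample, and Lin28b had 0 in all 4. Arid3a was at 31.5 and 23.8 CPM in K-Ras and 16.9 and 14.7 CPM in K-Ras Mll4-/- samples (-0.81, SE 0.21, edgeR adjusted p = 0.170). DESeq2 called Hmga1 higher and Arid3a lower, against 10.0% of all genes.

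Nkx2-1, the lung lineage factor that restrains Hmga2 in this tumour type, was at 45.7 and 62.7 CPM in K-Ras and 47.7 and 64.9 CPM in K-Ras Mll4-/- samples. The groups overlapped and the difference was 0.06 (SE 0.24, edgeR adjusted p = 0.913). It stood in a list of 8 differentiation factors, of which 7 were tested and none was called by edgeR, with a median of 0.41 and 6 positive. The median was -0.01 without K-Ras replicate 1, 1.15 without K-Ras replicate 2 and 0.26 without K-Ras Mll4-/- replicate 2. Hnf4a, a factor of gut and liver epithelium, was at 3.99 and 11.5 CPM against 28.9 and 34.0 CPM (2.02, SE 0.54, edgeR adjusted p = 0.177). Gata6, a zinc-finger factor of lung and gut endoderm, was at 30.4 and 36.6 CPM against 56.5 and 79.8 CPM (1.02, SE 0.22, edgeR adjusted p = 0.157). The intestinal factor Cdx2 had 0 reads in both K-Ras samples and 1 and 11 reads in the K-Ras Mll4-/- samples, and was not tested. DESeq2 called Gata6 and Hnf4a, both higher, against 10.0% of all genes called in either direction.

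Tumour progression genes, mainly integrins and surface or protease-system proteins, were a list of 8, all tested. None was called by edgeR, and the median was 0.70 with 7 positive. At an unadjusted edgeR p under 0.05, 3 were higher, against 11.4% of all genes. Without K-Ras replicate 2 the median was 1.15, with 5 positive and 3 negative. Itga2, an integrin of collagen adhesion, was at 102 and 107 CPM in K-Ras and 295 and 388 CPM in K-Ras Mll4-/- samples (1.71, SE 0.19, edgeR adjusted p = 0.117). Slc4a11, a membrane transporter, was at 10.5 and 8.96 CPM against 25.2 and 26.6 CPM (1.42, SE 0.17, edgeR adjusted p = 0.127). In both genes the K-Ras samples lay close together relative to the distance between the groups. DESeq2 called 3 genes of the list higher, Itga2 and Slc4a11 among them, against 10.0% of all genes called in either direction.

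**Figure D3:**
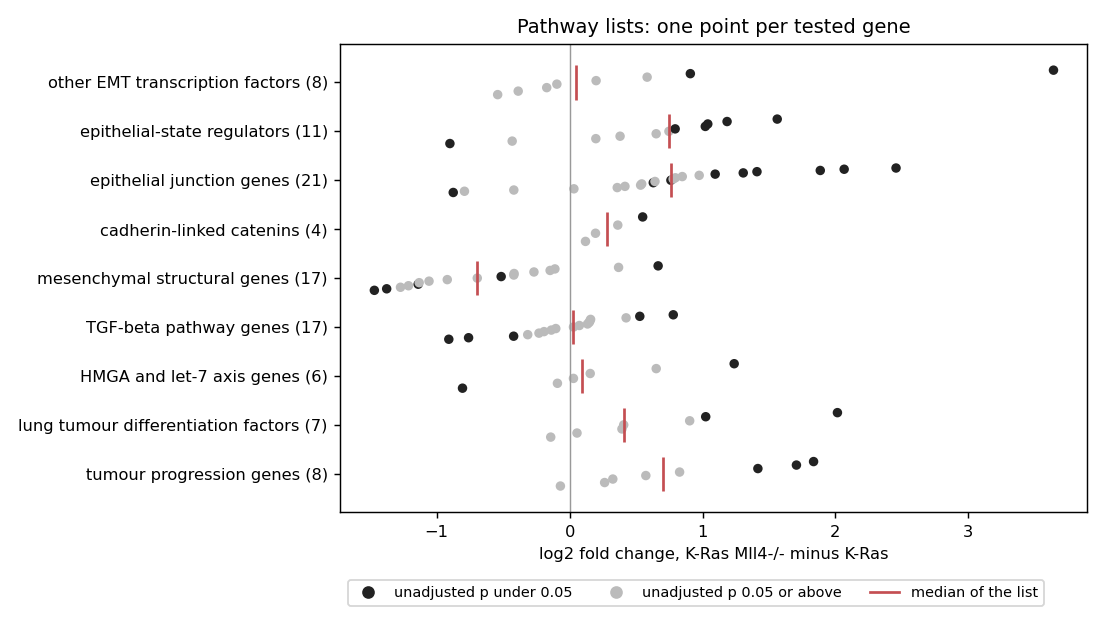
Log2 fold change (horizontal axis, K-Ras Mll4-/- minus K-Ras) of each tested gene of the 9 pathway lists, with the number tested in parentheses; dark points have an unadjusted edgeR p under 0.05 and red lines are list medians. Junction genes (median 0.76) lie mostly right of 0, mesenchymal structural genes (median -0.69) mostly left, and Sox9 is the point at 3.64.

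To compare levels between genes, CPM was divided by the total exon length of each gene in kilobases (GENCODE M21), a measure that understates genes with rarely used exons. In K-Ras samples the order was Vim (161 ± 73.0 CPM per kb, SD, n = 2), Fn1 (107 ± 32.5), Cdh1 (85.5 ± 34.6) and Epcam (51.7 ± 7.84), and neighbours in it overlapped except Cdh1 and Epcam. In K-Ras Mll4-/- samples Cdh1 came first (184 ± 49.3 CPM per kb), then Vim (129 ± 31.5), Epcam (94.6 ± 16.5) and Fn1 (76.9 ± 0.697). Of these neighbours, Cdh1 and Vim overlapped, and Vim lay above Epcam by a small margin. Cdh1 thus lay below Vim per kb in K-Ras replicate 1, at 61.0 against 213, and above it in K-Ras Mll4-/- replicate 2, at 219 against 106. In the remaining samples the values were nearly equal, at 109.9 and 109.6 in K-Ras replicate 2 and 149 and 151 in K-Ras Mll4-/- replicate 1. The transcription factors followed in one order in both groups. Zeb1 was at 13.4 ± 0.987 and 9.68 ± 1.81 CPM per kb, Zeb2 at 6.96 ± 3.67 and 4.89 ± 1.36, Snai1 at 5.59 ± 1.77 and 2.99 ± 0.491, and Snai2 at 1.35 ± 0.149 and 1.22 ± 0.207 in K-Ras and K-Ras Mll4-/- samples. Zeb2 and Snai1 did not differ beyond their spread in K-Ras samples. Hmga2 (0.196 ± 0.139 and 0.351 ± 0.0743) and Cdh2 (0.104 ± 0.0359 and 0.183 ± 0.0185) came last, and overlapped in K-Ras samples.

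Markers of cell types that express mesenchymal genes were compared as lists, since the samples are tumour tissue depleted only of CD45 cells. No tested marker gene was called by edgeR, and none of the 53 markers had 0 reads in any sample. DESeq2 called 6 of the 8 endothelial markers lower (Cdh5, Cldn5, Pecam1, Ramp2, Tek and Vwf), and 2 of the 8 fibroblast markers lower (Pdgfra and Mfap4). Of all 16001 tested genes it called 797 lower and 804 higher. It also called Msln of the mesothelial list higher, and Scgb1a1 of the club cell list and 3 ciliated cell markers lower. Fibroblast markers summed to 840 and 823 CPM in K-Ras and 591 and 558 CPM in K-Ras Mll4-/- samples, with 7 of 8 log2 fold changes negative and a median of -0.53. Endothelial markers summed to 6670 and 6476 CPM against 4179 and 3323 CPM, with 7 of 8 negative and a median of -0.78. Both sums put the groups apart and gave the 4 samples the same order, which Zeb1 and Snai1 also had. Within K-Ras both sums were close, and single markers did not share one order. Of the endothelial markers, Vwf, Pecam1, Kdr and Emcn were higher in K-Ras replicate 1. Cdh5 (1015 and 1360 CPM), Tek (435 and 512 CPM), Cldn5 and Ramp2 were lower in it. These markers were looked at singly after the sums were seen. An order over 4 samples is too little to tie a gene to a cell type. Pdgfra, a fibroblast receptor gene, was at 196 and 153 CPM against 77.7 and 74.0 CPM (-1.20, SE 0.17, edgeR adjusted p = 0.135), and Vwf, of endothelial cells, at 2669 and 2206 CPM against 1157 and 957 CPM (-1.20, SE 0.23, edgeR adjusted p = 0.147). The part of these cells in the lower Fn1, Zeb1, Snai1 and collagen values was not tested. The fibroblast sum was close in the 2 K-Ras samples and was led by Col6a1, at 342 and 399 CPM. Its markers were split between those samples. Pdgfra, Dcn (120 and 81.5 CPM) and, slightly, Col6a2 and Tcf21 were higher in K-Ras replicate 1, the sample with the most mesenchymal structural transcripts. Col6a1, Mfap4 (26.0 and 28.9 CPM), Fbln1 (16.2 and 22.4 CPM) and Lum (3.92 and 6.53 CPM) were lower in it. Dcn, a matrix proteoglycan gene, and the markers set beside it here, other than Pdgfra and Col6a1, are named after their values were seen.

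Macrophage and leukocyte markers summed to 5179 and 4501 CPM in K-Ras and 5027 and 3199 CPM in K-Ras Mll4-/- samples, and overlapped. Most of each sum was Lyz2, at 4171 and 4209 CPM in K-Ras and 4302 and 2821 CPM in K-Ras Mll4-/- samples, so the sum says little of the other markers. Ptprc, the gene of CD45, looked at because that antigen was depleted, was at 274 and 143 CPM in K-Ras and 269 and 171 CPM in K-Ras Mll4-/- samples, so both replicates 1 had more of it than both replicates 2. Vim and Zeb2, which leukocytes also express, were likewise higher in replicate 1 than in replicate 2 of each group. For Vim and Zeb2, as for Ptprc, both replicates 1 were above both replicates 2. Zeb1 and Snai1 were also higher in replicate 1 of each group. Their K-Ras replicate 2, however, was above K-Ras Mll4-/- replicate 1, at 130 against 112 CPM and 7.03 against 5.41 CPM. The part of leukocytes in these values was not tested. Smooth muscle and pericyte markers summed to 245 and 192 CPM in K-Ras and 193 and 158 CPM in K-Ras Mll4-/- samples. The mesothelial sum was 24.4 and 24.3 CPM against 126 and 226 CPM. It rested on Msln (13.8 and 17.0 CPM against 120 and 221 CPM). Of the 4 tested markers of that list, 3 had negative log2 fold changes, and the median was -0.23. Upk1b was lower, at 6.93 and 4.32 CPM against 2.74 and 2.20 CPM. Upk3b and Wt1, defining markers of mesothelium, had at most 23 reads and were not tested. Ciliated and club cell markers were concentrated in K-Ras replicate 2, at 484 and 3477 CPM, against 82.1 and 663 CPM in K-Ras replicate 1 and at most 49.1 and 735 CPM in K-Ras Mll4-/- samples. Airway epithelial cells also express Cdh1 and Epcam, and their part in the K-Ras replicate 2 values was not tested.

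**Figure D4:**
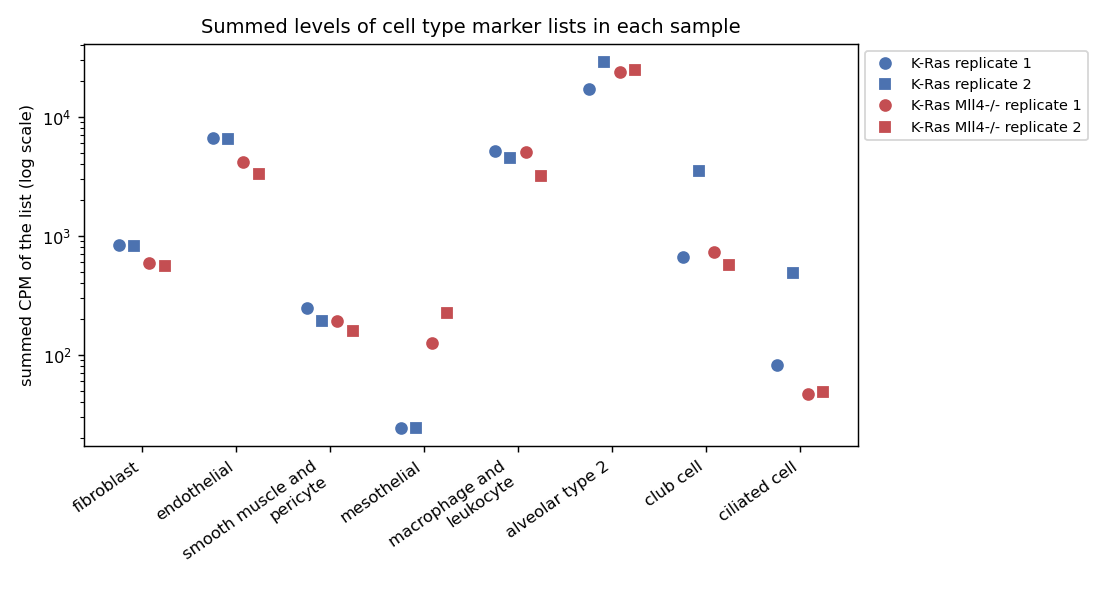
Summed TMM-scaled CPM (vertical axis, log scale) of 8 cell type marker lists in each of the 4 samples, coloured by group, with circles for replicate 1 and squares for replicate 2. Fibroblast and endothelial sums are lower in both K-Ras Mll4-/- samples, and ciliated and club cell sums are highest in K-Ras replicate 2.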

How the data were processed

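Raw read counts per gene symbol were deposited by the authors, 1 file per sample, with 5 closing tally lines that name no gene and were left out. Per the submitters' processing notes, CASAVA 1.4, STAR, HTSeq and the build mm9 were used. The gene annotation, strand setting and options are not given in the sources used here. The tally lines, for reads outside genes, ambiguous, unaligned or aligned to more than 1 place, held 60.1% to 65.6% of all tallied reads. Positions and sequences are from GRCm38 and were not converted.

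Groups were taken from the sample titles. The members and gene lists were chosen with earlier results of these data known. Counts were filtered with filterByExpr, scaled by TMM and tested with the robust edgeR 4.0.16 quasi-likelihood test (R 4.3.3), with Benjamini-Hochberg adjustment over 16001 genes and a call at 0.05. SE is the log2 fold change divided by the square root of F. Gene lists were described by counts and medians only. The fit was tested on simulated data with 200 changed genes.

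Besides the 10 members, Kmt2d, Hmga1, Nkx2-1, Twist1 and Tgfb1, the 3 tested genes with the smallest p of each pathway list and the 2 most abundant of each marker list were eligible to be named; others are said to be chosen later or are named as calls. Alternatives were other scalings and filters, DESeq2 1.42.0, limma-voom (limma 3.58.1), the replicate number as a block, and leaving out each sample. GC and length offsets (mgcv 1.9.3) were added after seeing the data. The labels name no batch. The limit of 3 reads covers counting error only, and the SD, SE and p-values measure the spread between samples. 1 gene that the naming rule selects is not reported here.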

Additional observations from a re-analysis of the deposited data

How the results depend on the processing

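The number of genes called over all genes was 6 and depended on the test. It was 44 with no count filter, 0 with limma-voom (3228 at an unadjusted p under 0.05), 1601 with DESeq2 (804 higher, 797 lower), and between 0 and 528 when 1 sample was left out, the highest without K-Ras replicate 1, where the spread rests on the 2 K-Ras Mll4-/- samples alone. The other scalings, the stricter filter and GC and length offsets gave 4 to 8. Same-numbered samples correlated at 0.243 in their deviations from the group means, over 2 pairs, which does not settle whether the numbers pair them, and the labels do not say what they mark. With the replicate block 217 genes (1.36%) were called (199 higher, 18 lower). With GC and length offsets and the replicate block together it was 293 of 15390 tested genes (261 higher, 32 lower). No member was called in these 2 fits, where the adjusted p was 0.0732 and 0.0502 for Cdh1 and 0.0678 and 0.0560 for Epcam. Among the lists, the replicate block called Ehf, Esrp1 and Klf5, Krt19, Sox9, Itga2, Msln (all higher) and Pdgfra (lower). With the offsets it called 4 regulators, 5 junction genes, 3 tumour progression genes, Sox9, Gata6 and Msln, all higher. Pdgfra was not called in that fit.

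DESeq2 called Cdh1 (log2 fold change 1.10, adjusted p = 0.0318) and Epcam (0.86, adjusted p = 0.0114), and no other setting called a member. Over the 14 alternatives the adjusted p reached 0.772 for each of them, without K-Ras Mll4-/- replicate 2. Without K-Ras replicate 1, Vim reversed to 0.24, Zeb2 to 0.17 and the Cdh1 to Cdh2 ratio difference to -0.49. Without K-Ras Mll4-/- replicate 1, Snai2 reversed to 0.022. Leaving out 1 sample gave -0.74 to 0.24 for Vim, -0.98 to 0.17 for Zeb2, -0.34 to 0.022 for Snai2 and -0.49 to 1.07 for the Cdh1 to Cdh2 ratio. The cause was not tested. Cdh1, Epcam, Cdh2, Fn1, Zeb1, Snai1 and Hmga2 kept their sign in all 14 alternatives. The scalings moved the median log2 fold change of all genes by at most -0.06. Depth limits Cdh2 (23 to 51 reads) and Hmga2 (24 to 88 reads).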
